A study of Homo sapiens with 16 samples.

Results

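Nutlin raised 5 DNA repair and stress genes of the p53 program in both of 2 thyroid carcinoma lines, and lowered 1. The 9 genes described here are *DDB2*, *XPC*, *POLH*, *RRM2B*, *PCNA*, *FANCC*, *GADD45A*, *GADD45B* and *GADD45G*. They were taken by symbol from a table of read counts for 25369 genes, and all 9 were found in it and passed the filter on low counts in both lines. *DDB2*, *XPC*, *POLH*, *RRM2B* and *GADD45A* rose under nutlin in TPC1 and K1 cells, whereas *FANCC* fell in both. The description of the 9 genes as driven upward by p53 therefore held for 5 of them in both lines. With nutlin alone *FANCC*, *PCNA*, *GADD45B* and *GADD45G* did not pass the thresholds for a rise in either line. *PCNA* in TPC1 rose by a fold of 1.47, just under the threshold of 1.5.

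When DNA is damaged, p53 is released from its repressor MDM2 and turns on genes that halt division, together with genes that help to mend the lesion. In global genome nucleotide excision repair, the DDB2 and XPC proteins find distorted bases before other factors open and cut the strand. POLH copies across ultraviolet lesions that stop the usual polymerases, RRM2B makes deoxynucleotides outside S phase, PCNA is the sliding clamp that holds polymerases on DNA, and FANCC belongs to the Fanconi anaemia core complex that acts on interstrand crosslinks. The GADD45 proteins are small stress proteins that bind PCNA, p21 and CDK1 and activate the kinase MAP3K4 upstream of p38 and JNK.

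TPC1 and K1, a derivative of GLAG-66, are papillary thyroid carcinoma lines with wild-type p53, grown in RPMI and DMEM medium respectively. Cells of each line were treated for 24 h with vehicle (0.2% DMSO), 10 µM nutlin, which frees p53 from MDM2, 25 µM GSK2830371, which inhibits the p53-opposing phosphatase PPM1D, or both drugs (the combination). Each of the 8 groups holds 2 libraries of stranded, polyadenylated RNA, 16 in all, with 30789887 to 76648552 counts per library in TPC1 and 28888686 to 37161241 in K1. The study's methods describe replicates in general as independently prepared, and the labels add nothing on this. The p-values measure the spread between these libraries. TPC1 replicates are numbered 1 and 3 after the columns of the table and K1 replicates 1 and 2.

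Levels are given as CPM, the count per 1000000 counts of a library after TMM scaling, for the replicates in the order of their numbers. A gene was called higher or lower where edgeR's quasi-likelihood test gave a Benjamini-Hochberg adjusted p under 0.05 and the fold change exceeded 1.5. A value after ± is the standard error of a log2 fold change, or, for CPM and RPKM, the SD of 2 libraries. *CDKN1A*, which encodes the cell cycle inhibitor p21, averaged 138 CPM with DMSO and 6908 with nutlin in TPC1, and 113 and 1011 in K1, so the libraries labelled nutlin carried the p53 response. Of the thyroid follicular markers, 3 exceeded 1 CPM in every TPC1 library (*PAX8*, *FOXE1* and *HHEX*) and 4 in every K1 library (these and *TG*). *TSHR* was at 0 in all libraries, and *NKX2-1*, *SLC5A5* and *DIO1* stayed under 1 CPM. Of 5 epithelial markers, 2 exceeded 1 CPM in every library of both lines (*KRT8* and *KRT18*), and *KRT19*, *EPCAM* and *CDH1* were under 1 CPM.

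To see which of the 9 genes hold letters that p53 binds, the GRCh37 genome was searched on both strands for pairs of p53 half-sites. A pair was counted where the half-sites lay 0 or 1 base apart with at most 1 of 20 letters off the consensus. Within each gene and 2000 bases on either side, *DDB2* held 2 such pairs, which overlap, and *GADD45A*, *PCNA*, *RRM2B* and *FANCC* held 1 each. *XPC*, *POLH*, *GADD45B* and *GADD45G* held 0. A pair each from *DDB2*, *GADD45A*, *PCNA* and *FANCC* is shown because these genes hold such letters and moved differently. The pair in intron 1 of *RRM2B* is not shown. The letters of the half-sites are in capitals, and each run is read on the strand of its gene.
DDB2, chr11:47236530-47236550, plus strand, exon 1, untranslated, 0 letters off: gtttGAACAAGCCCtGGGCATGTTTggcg
GADD45A, chr1:68152458-68152477, plus strand, intron 3, 1 letter off: tacaGAACATGTCTAAGCATGCTGgggac
PCNA, chr20:5104976-5104995, minus strand, base -4391 from the start of the canonical transcript, 1 letter off: tcaagAAACATTCTTAAGCATGCTTgatc
FANCC, chr9:97999534-97999554, minus strand, intron 4, 0 letters off: aattGAGCAAGTCCcAAACATGCTTtaca

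Such pairs occurred 4.47 times per megabase of the autosomes and X chromosome. Of genome windows as long as the *GADD45A* region, 3.1% held at least 1, against 6.6% for *PCNA*, 11.8% for *DDB2*, 15.4% for *RRM2B* and 75.9% for the long *FANCC* gene. A match in *FANCC* is thus what most windows of that length show. These matches are descriptions of letters, and a gene without a pair may be bound elsewhere or through other letters.

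Promoters from 250 bases before to 50 after the transcript start, from RefSeq in GRCh38.p14, were found for 7 genes and not for *RRM2B* or *GADD45A*. They were searched on both strands for E2F letters (TTTCCCGC, TTTCGCGC, TTTGCCGC or TTTGGCGC), since E2F factors drive many S phase genes. Of 35116 promoters of this length, 3.3% held such letters. Matches were found in *FANCC* (2), *PCNA* (1) and *XPC* (1), and in 0 promoters of the other 4 genes. *PCNA* and *FANCC* each have 2 promoters in this set, and only 1 of them held matches. For *PCNA* it was the more upstream one (chr20:5126573-5126872), and the one at chr20:5119909-5120208 held 0. For *FANCC* it was chr9:95317660-95317959, and the one at chr9:95317205-95317504 held 0. Base numbers count from the start site of the promoter that holds the match. Use of either start was not tested. The *FANCC* and *PCNA* windows are shown, with the E2F letters in capitals, because *FANCC* fell together with S phase genes and *PCNA* did not.
FANCC, chr9:95317864-95317891, read on the minus strand, E2F letters from base -172: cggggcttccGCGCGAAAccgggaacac
FANCC, chr9:95317738-95317765, read on the minus strand, E2F letters from base -46: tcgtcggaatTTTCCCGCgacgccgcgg
PCNA, chr20:5126664-5126691, read on the minus strand, E2F letters from base -59: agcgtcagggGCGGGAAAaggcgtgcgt

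Damage recognition genes rose with nutlin in both lines. *DDB2* (chr11:47236016-47260768, GRCh37, plus strand) encodes the damage sensor whose loss causes xeroderma pigmentosum group E. In TPC1 its level was 26.8 and 32.8 CPM with DMSO and 123 and 129 CPM with nutlin. The K1 libraries had 40.9 and 45.8 CPM with DMSO and 75.4 and 82.6 CPM with nutlin. In both lines the nutlin libraries lay above the DMSO libraries without overlap. The log2 fold change was 2.05 ± 0.13 in TPC1 cells (adjusted p = 1.9e-06 in edgeR's quasi-likelihood test) and 0.87 ± 0.07 in K1 cells (adjusted p = 6.2e-07). Because the cultures were sequenced in bulk, more cells with a transcript and more transcript per cell cannot be told apart, here and for the genes that follow.

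*XPC* (chr3:14186647-14220121, minus strand), whose protein binds the unpaired bases opposite a lesion, was at 40.8 and 40.4 CPM with DMSO and 197 and 193 CPM with nutlin in TPC1. K1 cells had 61.4 and 58.3 CPM with DMSO and 134 and 139 CPM with nutlin. Replicates of *XPC* were close, and in each line the treated pair stood well apart from the control pair. It rose by 2.23 ± 0.07 on the log2 scale in TPC1 and 1.19 ± 0.05 in K1, at adjusted p of 2.4e-08 and 2e-09 in edgeR's quasi-likelihood test.

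Few other genes of the excision repair pathway were called with nutlin. Of 23 other genes of nucleotide excision repair, such as the helicases, nucleases and transcription-coupled factors, 0 were called higher and 1 lower in TPC1 (*GTF2H2*, a TFIIH subunit, log2 fold change −0.65), and 0 were called in K1. Over all genes tested 17.5% were called higher and 18.0% lower in TPC1, and 3.84% and 5.43% in K1. At an unadjusted p under 0.05 they numbered 14 in TPC1 and 10 in K1 in edgeR's test, and DESeq2 called 3 and 0. With the combination against DMSO, 3 of the 23 were called higher in TPC1 (*ERCC4*, *ERCC6* and *UVSSA*, 0.62 ± 0.13, 0.65 ± 0.11 and 0.74 ± 0.26 in log2) and 2 lower (*ERCC2* and *RBX1*, −0.64 ± 0.07 and −0.66 ± 0.12), and 0 in K1 (8 at an unadjusted p under 0.05 in edgeR, 0 in DESeq2). With the combination, 22.5% of all genes tested were called higher and 21.7% lower in TPC1, and 7.62% and 8.09% in K1. The median log2 fold change of this list with nutlin was 0.03 in TPC1 and 0.01 in K1, beside −0.0018 and −0.0017 over all genes tested. The TPC1 count with nutlin was 2 under other scalings, filters or libraries in the fit, 3 with the replicate number as a block, 3 without DMSO replicate 1 or 3, 2 without nutlin replicate 1 and 4 without nutlin replicate 3.

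*POLH* (chr6:43543922-43588260, plus strand) encodes DNA polymerase eta, the enzyme missing in the variant form of xeroderma pigmentosum. It was at 75.7 and 65.9 CPM with DMSO in TPC1 and reached 318 and 279 CPM with nutlin. The K1 levels were 44.9 and 41.2 CPM with DMSO and 93.7 and 101 CPM with nutlin. *POLH* was thus higher with nutlin in all libraries, from a higher level with DMSO in TPC1. Its log2 fold change was 2.04 ± 0.12 in TPC1 cells (adjusted p = 8.8e-07 in edgeR's quasi-likelihood test) and 1.18 ± 0.06 in K1 cells (adjusted p = 1.1e-08).

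Other genes of translesion synthesis fell or were not called. Of 14, 5 were called lower in TPC1 and 4 in K1, with 0 called higher in either line. Of all genes tested, 18.0% were called lower and 17.5% higher in TPC1, and 5.43% and 3.84% in K1. The deepest decrease in both was that of *USP1*, which removes ubiquitin from PCNA, from 86.1 ± 3.1 to 12.7 ± 0.3 CPM in TPC1 (n = 2) and, in K1, from 75.7 ± 0.8 to 27.1 ± 1.1 CPM. *RAD18*, whose protein attaches that ubiquitin and so recruits polymerase eta, fell by 1.79 ± 0.13 in TPC1 and by 1.26 ± 0.09 in K1 (log2). With the GC content and transcript length trend removed, 2 of the 14 were called in K1.

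*RRM2B* showed the widest gap from its own pathway. It encodes p53R2, the ribonucleotide reductase subunit used for repair and for mitochondrial DNA (chr8:103216730-103251189, minus strand). In TPC1 its level was 50.4 and 44.7 CPM with DMSO and 270 and 280 CPM with nutlin. The level in K1 was 75.3 and 72.1 CPM with DMSO and 200 and 187 CPM with nutlin. All nutlin libraries were above all DMSO libraries. *RRM2B* rose by 2.50 ± 0.09 (TPC1) and 1.39 ± 0.08 (K1) in log2, at adjusted p of 5.2e-08 and 2.1e-08 in edgeR's quasi-likelihood test.

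*RRM2*, the S phase subunit that RRM2B can replace, moved the other way, from 410 ± 28 to 12.6 ± 0.7 CPM in TPC1 and, in K1, from 260 ± 7 to 60.4 ± 7.6 CPM (n = 2). Those are log2 fold changes of −5.06 ± 0.10 and −2.10 ± 0.08. *RRM1*, the large subunit that pairs with either, fell by 1.04 ± 0.07 in TPC1 and by 0.87 ± 0.09 in K1. In all, 8 of 14 nucleotide supply genes were called lower in TPC1 and 6 in K1, with 0 called higher. Their medians were −1.0 and −0.55 (log2). The shares of all genes tested were 18.0% lower and 17.5% higher in TPC1, and 5.43% and 3.84% in K1.

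**Figure D1:**
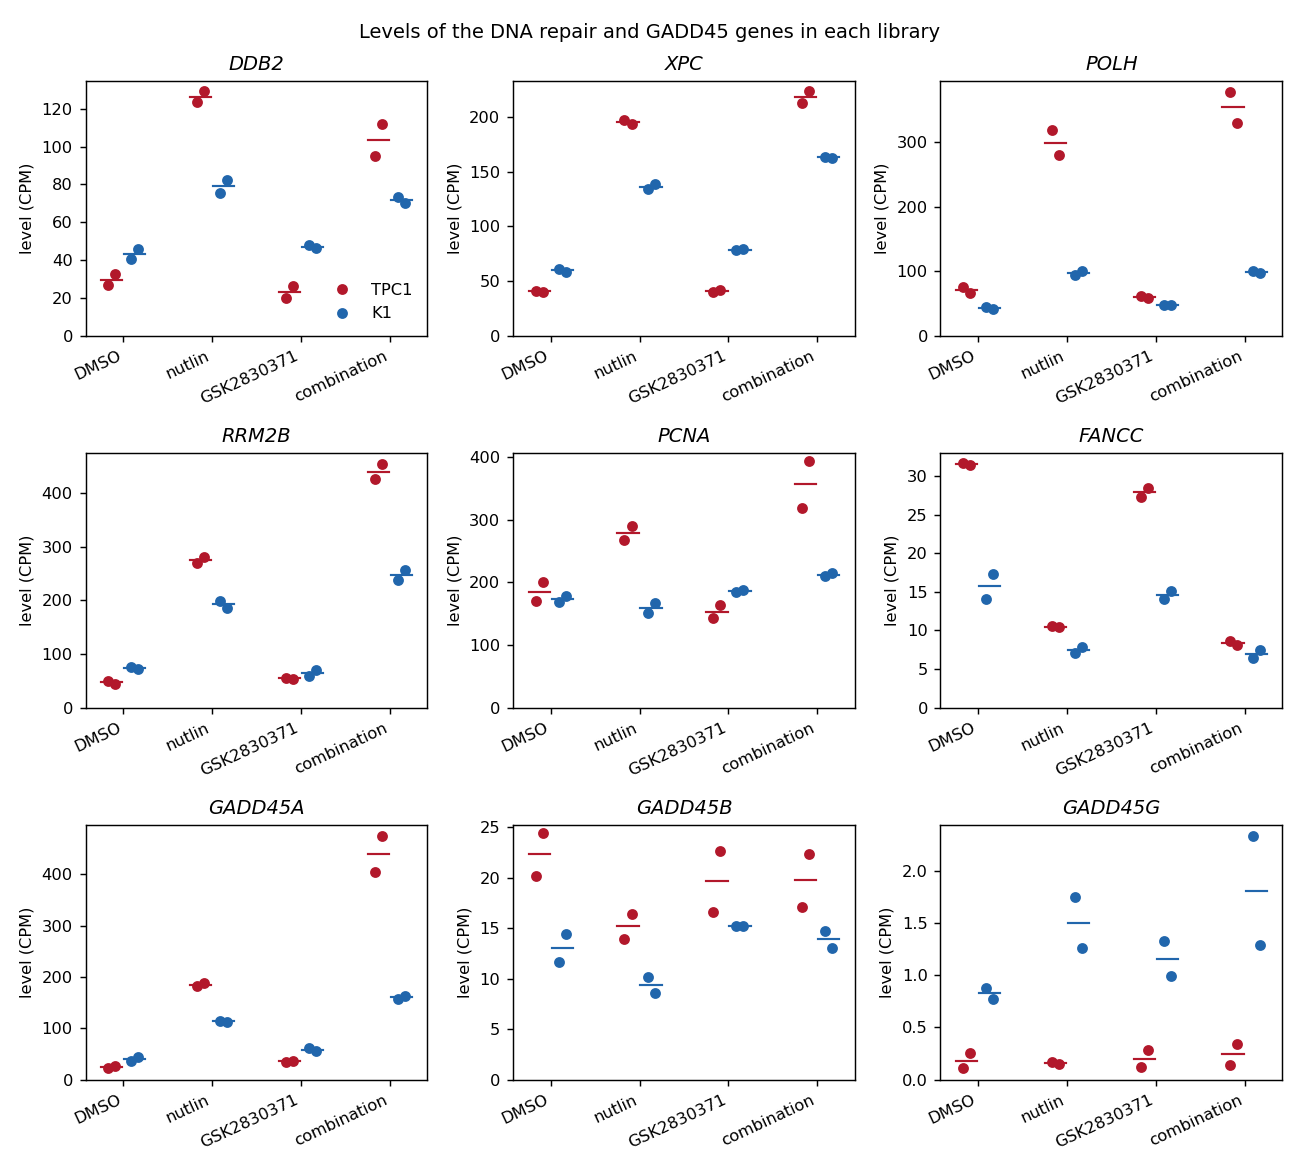
Level of each of the 9 genes in CPM (vertical axis, from 0, a separate scale per gene) under the 4 treatments (horizontal axis), with TPC1 in red and K1 in blue. Points are single libraries and short lines the mean of 2. *GADD45A* and *RRM2B* climb with nutlin and again with the combination in TPC1, *FANCC* drops, and *GADD45G* stays under 2.5 CPM in all libraries.

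*PCNA* behaved differently in the 2 lines. This gene (chr20:5095599-5107272, minus strand) serves both replication and repair, and its counts are uncertain because processed pseudogenes share its sequence. In TPC1 it was at 170 and 201 CPM with DMSO and at 268 and 290 CPM with nutlin. K1 libraries were at 169 and 178 CPM with DMSO and at 151 and 168 CPM with nutlin. The TPC1 pairs were separate with nutlin above, and in K1 the nutlin pair lay just below. The log2 fold change in TPC1, 0.56 ± 0.12, passed the adjusted p (0.0028 in edgeR's quasi-likelihood test) but its fold change of 1.47 did not reach 1.5. It was called with the GC content and length trend removed (0.68) and without DMSO replicate 3 (0.68) or nutlin replicate 1 (0.61). In K1 the value was −0.12 ± 0.06 (adjusted p = 0.14).

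Genes that work with PCNA fell in both lines. Of 18 genes of clamp loading and lagging strand synthesis, 15 were called lower and 1 higher in TPC1, and 14 lower and 0 higher in K1. Beside these, 18.0% of all genes tested were called lower and 17.5% higher in TPC1, and 5.43% and 3.84% in K1. *POLE2*, a subunit of the leading strand polymerase, went from 15.1 ± 1.0 to 1.21 ± 0.42 CPM in TPC1 and, in K1, from 7.56 ± 0.40 to 1.85 ± 0.05 CPM. *POLD4*, the smallest subunit of DNA polymerase delta, was the gene that rose, from 25.9 ± 5.2 to 56.7 ± 4.3 CPM in TPC1 (log2 fold change 1.09 ± 0.14). The median of the list was −2.04 in TPC1 and −1.31 in K1 (log2).

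*FANCC* (chr9:97861336-98189078, minus strand) fell with the Fanconi anaemia genes around it. In TPC1 its level was 31.7 and 31.4 CPM with DMSO and 10.5 and 10.5 CPM with nutlin. The K1 libraries had 14.1 and 17.3 CPM with DMSO and 7.09 and 7.89 CPM with nutlin. The control libraries were above the treated ones in both lines. The log2 fold change was −1.63 ± 0.08 in TPC1 cells (adjusted p = 3.4e-07 in edgeR's quasi-likelihood test) and −1.07 ± 0.12 in K1 cells (adjusted p = 1.4e-05).

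Of 13 other genes of the core complex and of the FANCD2-FANCI pair on which it acts, 10 were called lower in each line and 0 higher. Among all genes tested, 18.0% were called lower and 17.5% higher in TPC1, and 5.43% and 3.84% in K1. *FANCB*, a core complex subunit, showed the deepest decrease, from 6.31 ± 0.98 to 0.709 ± 0.094 CPM in TPC1 and, in K1, from 9.75 ± 0.47 to 2.92 ± 0.22 CPM. *FANCA* fell by 2.67 ± 0.13 in TPC1 and by 1.47 ± 0.07 in K1, and *FANCD2* by 1.97 ± 0.09 and 1.18 ± 0.10 (log2). The list median was −1.66 in TPC1 and −1.28 in K1, so *FANCC* lay near the middle of its complex.

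**Figure D2:**
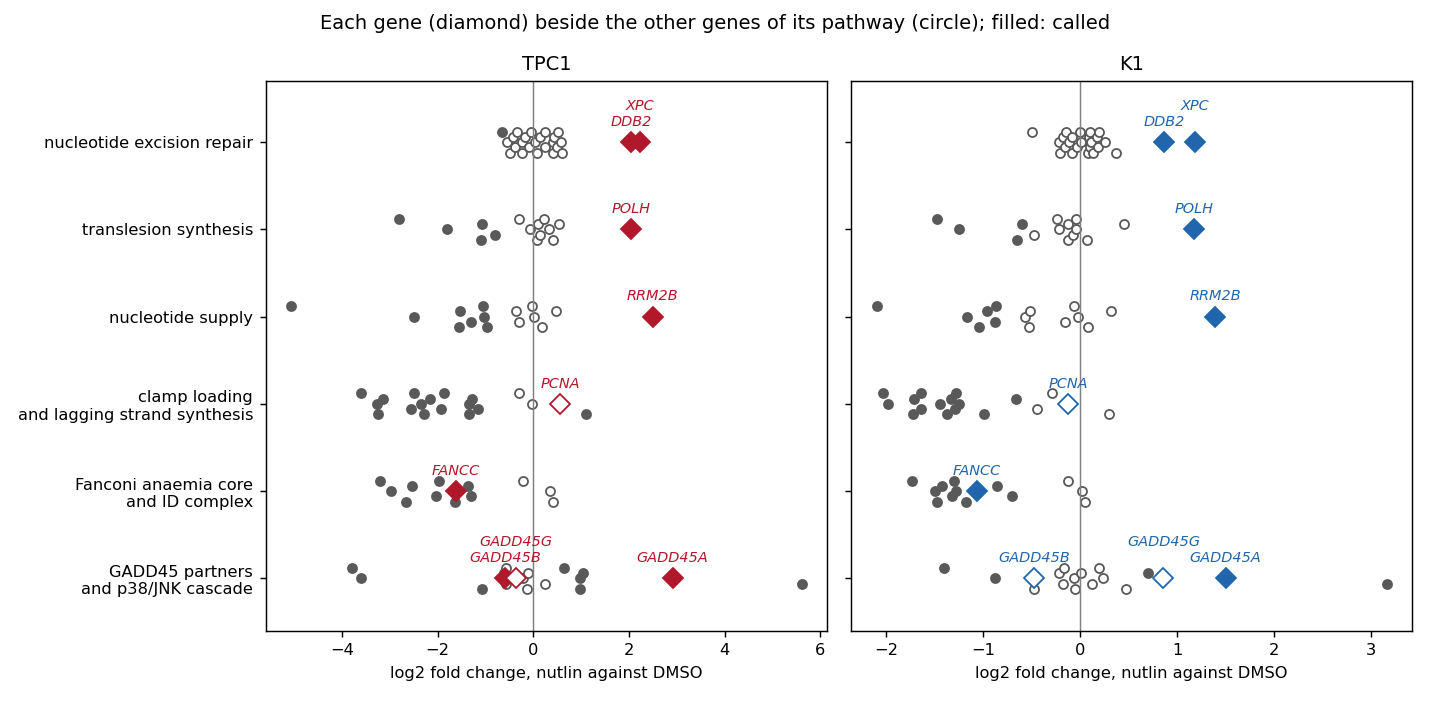
Log2 fold change with nutlin against DMSO (horizontal axis, a separate scale per line) for each gene described (diamonds) and the other genes of its pathway list (grey circles, spread vertically for legibility), in TPC1 (left) and K1 (right). Filled symbols were called. *DDB2*, *XPC*, *POLH* and *RRM2B* lie to the right of their lists, whereas *FANCC*, at −1.63 and −1.07, lies among the Fanconi anaemia genes.

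Of the 3 GADD45 genes only *GADD45A* rose with nutlin in both lines by the calls made here. *GADD45A* (chr1:68150884-68154017, plus strand) is the classical damage-inducible member of the family. In TPC1 it was at 22.1 and 26.0 CPM with DMSO and at 182 and 188 CPM with nutlin. In K1 it was at 36.6 and 44.1 CPM with DMSO and at 115 and 113 CPM with nutlin. No nutlin library overlapped a DMSO library. The log2 fold change, 2.91 ± 0.10 in TPC1 and 1.5 ± 0.08 in K1, was larger than that of each of the other 8 genes in both lines, with adjusted p of 4e-08 and 9e-09 in edgeR's quasi-likelihood test. The difference from *RRM2B*, next in each line, was not tested.

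*GADD45B* (chr19:2476120-2478257, plus strand), known as a target of NF-kB and TGF-beta signalling, was called lower in TPC1. There it was at 20.2 and 24.5 CPM with DMSO and at 14.0 and 16.4 CPM with nutlin. K1 levels were 11.7 and 14.4 CPM with DMSO and 10.2 and 8.60 CPM with nutlin. The pairs did not overlap in either line, but the gaps were small. The log2 fold change of −0.59 ± 0.17 in TPC1 was called (adjusted p = 0.015 in edgeR's quasi-likelihood test). That call was lost with DESeq2 size factors (−0.58), in DESeq2 (−0.58), and without DMSO replicate 3 (−0.44) or nutlin replicate 1 (−0.49). In K1 −0.48 ± 0.12 passed the adjusted p (0.0079) but not the fold change, and it was called without DMSO replicate 1 or nutlin replicate 1.

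*GADD45G* (chr9:92219927-92221470, plus strand) was close to absent in TPC1, with 4 to 22 counts per library. There it was at 0.11 and 0.25 CPM with DMSO and 0.17 and 0.14 CPM with nutlin, pairs that overlapped. In K1 it had 29 to 76 counts per library, and was at 0.87 and 0.77 CPM with DMSO and 1.75 and 1.26 CPM with nutlin. The K1 pairs were apart, but the log2 fold change of 0.86 ± 0.32 missed the threshold (adjusted p = 0.061 in edgeR's quasi-likelihood test). It was called in K1 with no filter on low counts, with the replicate block, with the compared groups alone, and without combination replicate 1 or 2.

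A list of 15 genes holds binding partners of the GADD45 proteins and the kinases of the p38 and JNK cascade below MAP3K4. With nutlin 5 of them were called higher and 4 lower in TPC1, where 17.5% and 18.0% of all genes were, and 2 higher and 2 lower in K1, where 3.84% and 5.43% were. Of the 5 called higher in TPC1, 4 were kinases of the cascade (*MAP2K3*, *MAP2K4*, *MAPK11* and *MAPK13*). Of these 4, only *MAPK13* was called in K1. *MAP2K6*, another kinase of the cascade, was called lower in TPC1 (log2 fold change −0.62 ± 0.14). *CDKN1A* had the largest increase in both lines (log2 fold change 5.61 ± 0.14 and 3.16 ± 0.06), and *MAPK13*, a p38 kinase, rose in both (1.03 ± 0.08 and 0.70 ± 0.09). *CCNB1*, the cyclin of the CDK1 complex that GADD45A inhibits, went from 287 ± 27 to 21.2 ± 0.8 CPM in TPC1, the deepest decrease of the list there. *CDK1* had that place in K1, where it went from 56.6 ± 3.3 to 21.3 ± 1.3 CPM. *MAP3K4*, the kinase that the GADD45 proteins activate, fell by 1.08 ± 0.08 in TPC1 (log2).

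With nutlin, 5 of the 9 genes were thus called higher and 2 lower in TPC1, where 17.5% of 15273 genes were called higher and 18.0% lower. In K1 5 were called higher and 1 lower, where 3.84% of 15900 genes were called higher and 5.43% lower. The median log2 fold change of the 9 was 2.04 in TPC1 and 0.87 in K1, beside medians of −0.0018 and −0.0017 over all genes tested.

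GSK2830371 alone left the 9 genes without a call in either line, while 1.40% of genes were called in TPC1 and 2.23% in K1. In edgeR's quasi-likelihood test 4 of the 9 had an unadjusted p under 0.05 in each line, and DESeq2 called 0. *GADD45A* came closest in both. It was at 33.8 and 37.0 CPM with GSK2830371 in TPC1 and at 60.6 and 55.3 CPM in K1, above the DMSO libraries of its line. The log2 fold change was 0.56 ± 0.10 in TPC1 cells (adjusted p = 0.026) and 0.52 ± 0.08 in K1 cells (adjusted p = 0.00089 in edgeR's quasi-likelihood test), or folds of 1.47 and 1.43. It was called in TPC1 without DMSO replicate 3 (0.67), with scaling by library size alone (0.61) and with the GC content and length trend removed (0.62). In K1 it was called without DMSO replicate 2 (0.66).

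*XPC* was at 78.2 and 79.6 CPM with GSK2830371 in K1 and at 40.3 and 41.8 CPM in TPC1. The K1 pair stood above its controls, with a log2 fold change of 0.40 ± 0.05 (adjusted p = 0.00059 in edgeR's quasi-likelihood test), and the TPC1 pair overlapped its controls. *RRM2B* was at 58.2 and 70.8 CPM in K1, where its log2 fold change was −0.19 ± 0.08 (adjusted p = 0.12). Fold changes with GSK2830371 in K1 moved with GC content over 13805 genes (Spearman's rho 0.479, across genes, which are not independent replicates), and the *RRM2B* transcript has a GC content of 35.1%. With that trend removed the *RRM2B* value turned to 0.18 and that of *XPC* was 0.28. Over all genes 63 were then called higher and 65 lower in K1, in place of 117 and 238.

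With both drugs, 6 of the 9 genes were called higher and 1 lower against DMSO in each line. These comparisons use the same DMSO libraries as those of the single drugs, so their values are given side by side without a measure of overlap. In TPC1 22.5% of genes were called higher and 21.7% lower, and in K1 7.62% and 8.09%. *DDB2*, *XPC*, *POLH*, *RRM2B* and *GADD45A* were among the higher genes in both lines and *FANCC* was the lower one. The sixth was *PCNA* in TPC1, with 318 and 394 CPM, and *GADD45G* in K1, with 2.33 and 1.29 CPM. *PCNA* reached a log2 fold change of 0.92 ± 0.12 in TPC1 cells (adjusted p = 1e-04), and in K1, at 210 and 215 CPM, it reached 0.29 ± 0.06 (adjusted p = 0.001 in edgeR's quasi-likelihood test), under the fold threshold. The *GADD45G* value of 1.13 ± 0.31 in K1 cells (adjusted p = 0.0091) fell to 0.64 without combination replicate 1 and to 1.04 without DMSO replicate 2, and the call was lost each time.

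The largest changes against DMSO were those of *GADD45A*. It stood at 404 and 475 CPM with the combination in TPC1 and at 157 and 163 CPM in K1. These are log2 fold changes of 4.16 ± 0.11 in TPC1 and 1.99 ± 0.08 in K1, at adjusted p of 6.1e-09 and 3.7e-10 in edgeR's quasi-likelihood test. *RRM2B* followed with 425 and 454 CPM in TPC1 and 238 and 255.9 CPM in K1. Its log2 fold changes were 3.18 ± 0.10 and 1.75 ± 0.08. *FANCC* was at 8.65 and 8.09 CPM in TPC1, below its nutlin libraries, and at 6.40 and 7.50 CPM in K1, where the pair overlapped its nutlin pair.

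**Figure D3:**
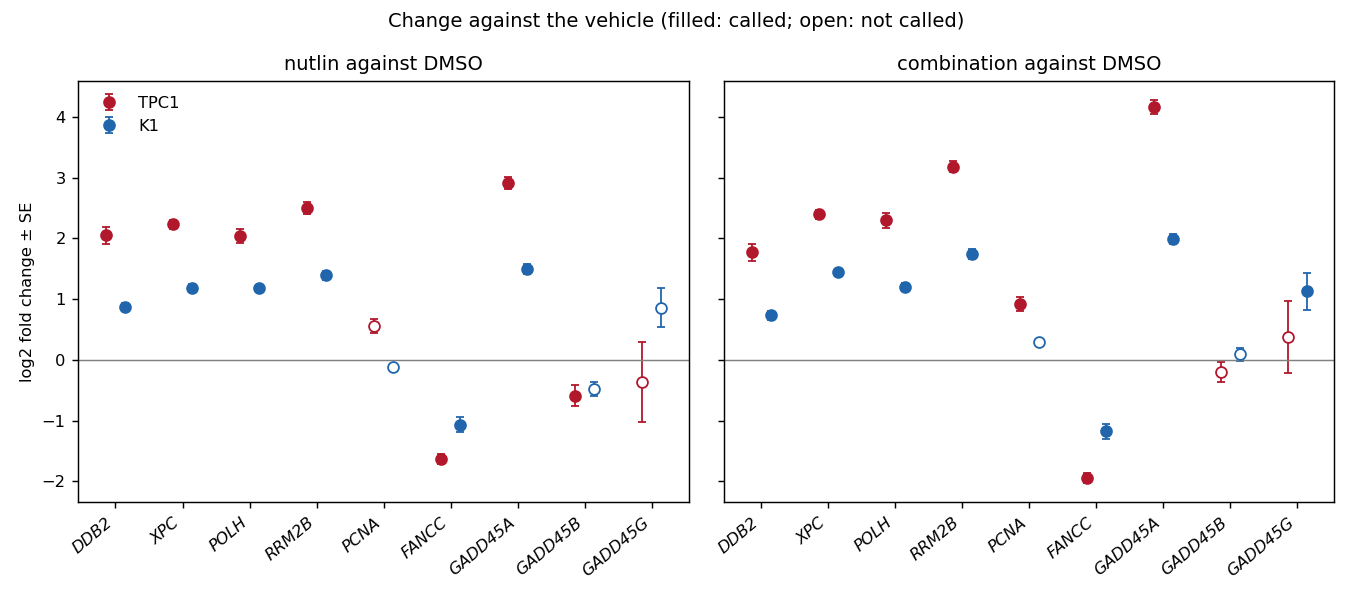
Log2 fold change (vertical axis) of the 9 genes against DMSO with nutlin (left) and with the combination (right), in TPC1 (red) and K1 (blue). Bars are standard errors and filled points were called. The TPC1 points of *DDB2*, *XPC*, *POLH*, *RRM2B* and *GADD45A* lie above the K1 points in both panels, and *FANCC* is below 0 in both.

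Adding GSK2830371 to nutlin raised 2 of the 9 genes further in TPC1, *RRM2B* and *GADD45A*, where 6.46% of genes were called higher. *GADD45A* gained 1.25 ± 0.10 on the log2 scale over nutlin alone (adjusted p = 6.8e-05 in edgeR's quasi-likelihood test), a fold of 2.39. *RRM2B* gained 0.69 ± 0.09 (adjusted p = 0.00086), a fold of 1.61. For both, the combination libraries were above all nutlin libraries of the line, and the calls held in each alternative analysis tried.

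Among the damage recognition genes the 2 sensors differed in sign. *XPC* with the combination was at 213 and 224 CPM in TPC1 and at 164 and 163 CPM in K1, above the nutlin libraries of its line. *DDB2* was at 95.0 and 112 CPM in TPC1 and at 73.5 and 70.3 CPM in K1, below the nutlin libraries of its line. The *DDB2* log2 difference was −0.28 ± 0.13 in TPC1 cells (adjusted p = 0.14) and −0.14 ± 0.07 in K1 cells (adjusted p = 0.23), and neither passed edgeR's quasi-likelihood test. That of *XPC*, 0.17 ± 0.07 and 0.26 ± 0.05, had adjusted p of 0.11 and 0.0057 in the same edgeR test and stayed under the fold threshold. *POLH* was at 378 and 330 CPM in TPC1 and at 101 and 97.7 CPM in K1, differences of 0.25 ± 0.11 and 0.03 ± 0.06 from nutlin.

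In K1 the combination gave 0 calls among the 9 genes against nutlin, with 2.68% of genes called in either direction. By edgeR's test 5 of the 9 had an unadjusted p under 0.05, the same number passed the adjusted p, and DESeq2 called 0. These were *XPC*, *RRM2B*, *PCNA*, *GADD45A* and *GADD45B*, with log2 differences of 0.26 to 0.57. *GADD45B*, which had been lower with nutlin, was at 14.7 and 13.1 CPM with the combination in K1 and at 17.1 and 22.4 CPM in TPC1. In both lines that pair was above the nutlin pair and overlapped the DMSO pair. Its K1 difference from nutlin was 0.57 ± 0.12 (adjusted p = 0.0079 in edgeR's quasi-likelihood test, fold 1.48), and it was called without nutlin replicate 1 (0.69) or combination replicate 2 (0.65), with library size alone (0.61) and with the GC content and length trend removed (0.60).

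When GSK2830371 was added to nutlin, 986 of 15273 genes were called higher and 865 lower in TPC1, and 184 and 242 of 15900 in K1. In TPC1 1 of 14 nucleotide supply genes was called, *RRM2*, which fell by a further 0.80 ± 0.10 (log2), and in K1 the same gene fell by 0.59 ± 0.08. The calls for the other lists in TPC1 were 1 of 18 for clamp loading (*FEN1*, the flap endonuclease, −0.61 ± 0.13) and 3 of 15 for the GADD45 partners and the p38 and JNK cascade. The last were *CDKN1A* (0.87 ± 0.12), *CCNB1* (−0.83 ± 0.09) and *MAP2K6* (−0.82 ± 0.15). The *FEN1* call was lost without nutlin replicate 1 or combination replicate 3, and the K1 *RRM2* call was lost with library size alone and without nutlin replicate 2 or combination replicate 1. In K1 3 of these 15 were called (*CDKN1A*, *CCNB1* and *CDK1*) and 0 of the 18 clamp loading genes (8 at an unadjusted p under 0.05 in edgeR, 0 in DESeq2). The excision repair, translesion and Fanconi anaemia lists had 0 calls in either line by edgeR or DESeq2, with 6, 5 and 4 genes at an unadjusted p under 0.05 in TPC1 and 4, 3 and 6 in K1. *RRM2B* and *RRM2* thus moved further apart in TPC1. They did so in K1 as well, where the *RRM2B* difference from nutlin, 0.36 ± 0.08 (log2), was not called.

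**Figure D4:**
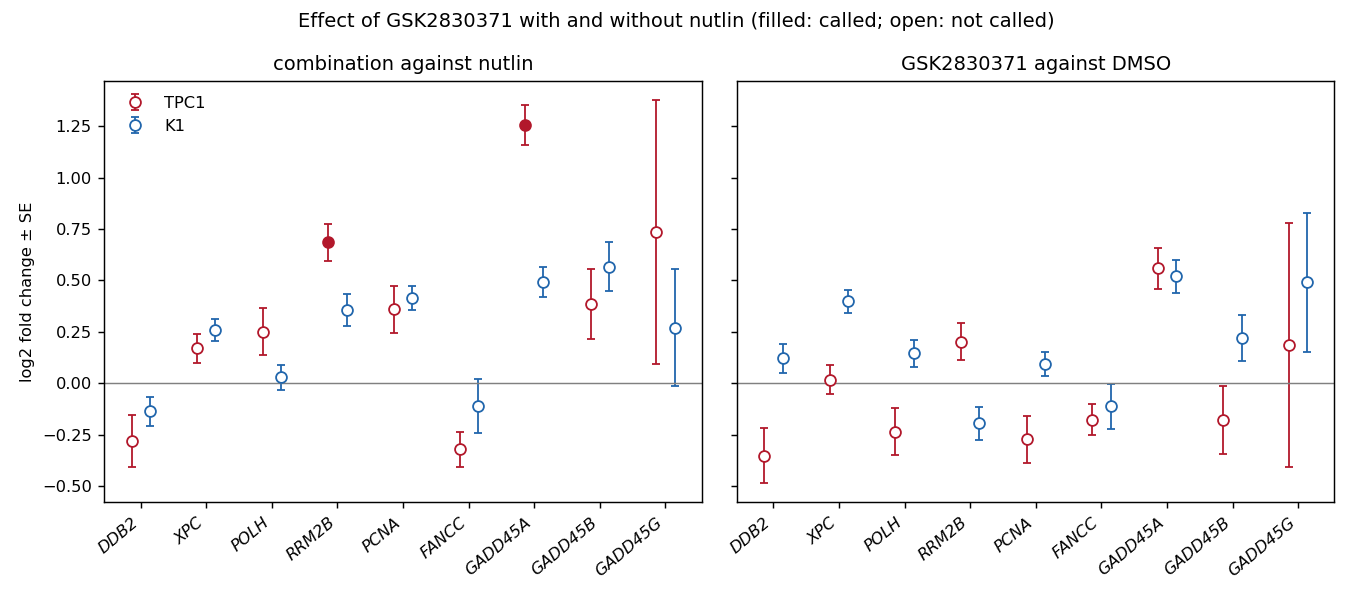
Log2 difference (vertical axis) that GSK2830371 made to the 9 genes on top of nutlin (left) and on its own (right), in TPC1 (red) and K1 (blue). Bars are standard errors, and the filled points, *RRM2B* and *GADD45A* in TPC1 on top of nutlin, were called. *GADD45A* is above 0 in both panels and lines, and *DDB2* is below 0 on top of nutlin in both lines.

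Against GSK2830371 alone, the combination gave 7 calls in TPC1, with 38.5% of genes called, and 6 in K1, with 13.1%. They were the 5 genes raised by nutlin in both lines, *FANCC* on the lower side, and *PCNA* in TPC1. The smallest of these was that of *DDB2* in K1, 0.61 ± 0.07, and it was not called without GSK2830371 replicate 2 or combination replicate 1. *GADD45G* in K1 was called here without combination replicate 2 (1.01) and with no filter (0.64).

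The interaction asks whether both drugs together did more than the sum of their separate log2 effects. In TPC1 it was called higher for *GADD45A* (0.69 ± 0.14, adjusted p = 0.019) and *PCNA* (0.63 ± 0.16, adjusted p = 0.046) in edgeR's quasi-likelihood test, where 2.82% of genes were. *PCNA* was at 143 and 164 CPM with GSK2830371 alone (−0.27 ± 0.12, adjusted p = 0.22), below its DMSO libraries, and at 318 and 394 CPM with the combination. *RRM2B* (0.48 ± 0.13, adjusted p = 0.049) stayed under the fold threshold. Both calls were lost when any of 6 single libraries was left out, with 0.58 for *GADD45A* and 0.52 for *PCNA* without DMSO replicate 3, 0.68 and 0.58 without nutlin replicate 1, 0.71 and 0.68 without nutlin replicate 3, 0.65 and 0.56 without GSK2830371 replicate 1, 0.74 and 0.71 without GSK2830371 replicate 3, and 0.58 and 0.48 without combination replicate 3. *PCNA* also lost its call with library size alone (0.56) and with the GC content and length trend removed (0.49).

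In K1 the interaction gave 0 calls among the 9 genes, with 2.44% of genes called. Its values moved with GC content (Spearman's rho −0.489 over 13805 genes, which are not independent replicates). With that trend removed 40 genes were called higher and 44 lower, in place of 284 and 104. At an unadjusted p under 0.05 edgeR's test had 3 (*DDB2*, *RRM2B* and *PCNA*), and DESeq2 called 0. *RRM2B* had 0.55 ± 0.11 (adjusted p = 0.013 in edgeR's quasi-likelihood test). It was called with library size alone (0.60), without nutlin replicate 1 (0.60), GSK2830371 replicate 2 (0.70) or combination replicate 1 (0.60), and was 0.12 with the GC content and length trend removed. *GADD45A* had −0.03 ± 0.11 in K1, whereas its separate effects had been 1.5 with nutlin and 0.52 with GSK2830371.

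The response to nutlin was smaller in K1 than in TPC1 for 6 of the 9 genes in a fit of all 16 libraries, where 10.5% of 16738 genes were called in that direction. The log2 difference between the lines was −1.44 ± 0.14 for *GADD45A*, −1.21 ± 0.17 for *DDB2*, −1.14 ± 0.13 for *RRM2B*, −1.08 ± 0.09 for *XPC*, −0.90 ± 0.13 for *POLH* and −0.71 ± 0.15 for *PCNA*. Adjusted p ran from 2e-07 for *XPC* to 0.0014 for *PCNA* in edgeR's quasi-likelihood test. For *FANCC*, which fell in both, the difference was 0.52 ± 0.15 (adjusted p = 0.015), under the fold threshold, and it was called without K1 DMSO replicate 2 (0.68) or K1 nutlin replicate 1 (0.60). For *GADD45B* the difference was 0.08 ± 0.24. *MDM2*, the p53 target that nutlin blocks as a protein, differed by −1.95 ± 0.12 in the same direction.

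Differences between the lines for the other effects were fewer. The gain of *GADD45A* from adding GSK2830371 to nutlin was smaller in K1, by −0.76 ± 0.14 on the log2 scale (adjusted p = 0.0031 in edgeR's quasi-likelihood test), and 2.56% of genes were called in that direction. For *RRM2B* the same difference was −0.32 ± 0.12 and did not pass. The response to GSK2830371 alone gave 0 calls among the 9 genes, with 2.18% of genes called, 5 of the 9 at an unadjusted p under 0.05 in edgeR and 0 in DESeq2. *DDB2* (0.47 ± 0.17) was called without TPC1 DMSO replicate 1 (0.61).

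With DMSO for 24 h the lines differed in 6 of the 9 genes, while 46.2% of genes were called. *RRM2B* (0.63 ± 0.09), *GADD45A* (0.74 ± 0.10) and *GADD45G* (2.04 ± 0.48) were higher in K1 with DMSO, and *POLH* (−0.72 ± 0.09), *FANCC* (−1.0 ± 0.10) and *GADD45B* (−0.78 ± 0.16) were lower, in log2. The *RRM2B* call was lost without TPC1 DMSO replicate 3 (0.55). *DDB2* was added with the replicate number as a block (0.64), which sets the difference at replicate 1 of each line. It was also added without TPC1 DMSO replicate 3 (0.69) or K1 DMSO replicate 1 (0.62). *XPC* was added without K1 DMSO replicate 2 (0.60). Line, culture medium and any difference in sequencing between the lines cannot be told apart in these levels.

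Per kilobase of transcript, *PCNA* was the most abundant of the 9 with DMSO, at 145 ± 17 RPKM in TPC1 and 136 ± 5 in K1 (CPM divided by the length of the canonical transcript in kilobases). Next in TPC1 came *GADD45A*, *DDB2* and *GADD45B*, at 17.8, 16.4 and 16.3 RPKM, whose libraries overlapped, then *XPC* (11.1), *RRM2B* (9.96), *POLH* (8.46) and *FANCC* (6.87), which did not. With the combination *GADD45A* reached 325 ± 37 RPKM in TPC1, overlapping *PCNA* at 279 ± 42. *RRM2B* followed with 92.1 RPKM, then *XPC* (59.8) and *DDB2* (57.0), which overlapped, and *POLH* (42.3). In K1 *PCNA* kept the first place with 167 ± 2 RPKM, above *GADD45A* with 118 ± 3, without overlap. *GADD45G* was lowest in TPC1 under both conditions, at 0.17 and 0.22 RPKM, and in K1 *FANCC* and *GADD45G* overlapped with the combination, at 1.51 and 1.70 RPKM.

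Over the 16 libraries, with each line centred on its own mean, log2 levels of the 5 genes raised in both lines correlated with each other at 0.906 to 0.99 (Pearson's r). *PCNA* correlated with them at 0.798 to 0.855, *FANCC* at −0.987 to −0.92, *GADD45B* at −0.466 to −0.305 and *GADD45G* at 0.265 to 0.38. These are descriptions over libraries that share 4 treatments. Of 9835 candidate genes, the closest to *XPC* were *CDKN1A* (0.998) and *PTCHD4* (0.997), to *POLH* *APAF1* (0.995) and *KDM4B* (0.994), to *RRM2B* *TMEM68* (0.996) and *NBEAP1* (0.994), to *GADD45A* *PLK3* (0.996) and *ANKRA2* (0.994), and to *DDB2* *EI24* and *SPRYD4* (0.989 each). *FANCC* was closest to *CDC25A* (0.996) and *TONSL* (0.995). The nearest genes to *PCNA* were *IRF1* (0.972) and *SLC9A3R1* (0.956), and those to *GADD45B*, *PP7080* (0.881) and *TMEM18* (0.852), were less alike.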

How the data were processed

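Polyadenylated RNA from 16 libraries was sequenced with strand information. The authors aligned reads to GRCh37 with TopHat2 2.0.13, dropped reads whose mapping quality was low and counted the rest per gene with HTSeq 0.6.1 (submitters' processing notes and the study's methods), so each deposited value is a raw count per gene symbol, not normalized. Reads of low mapping quality being removed, counts of genes with near-identical copies, such as *PCNA* and its pseudogenes, may be too low. Columns of TPC1 that carry the number 3 were placed by treatment only, because the labels number these replicates 1 and 2. All columns were used.

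The tools were R 4.3.3 with edgeR 4.0.16 (limma 3.58.1), DESeq2 1.42.0 for an alternative test, and Python 3.11.15 for sequences and plots. A gene was tested in a line if 2 or more libraries exceeded 0.1 CPM, which left 15273 genes in TPC1 and 15900 in K1. One edgeR quasi-likelihood fit per line held all 4 treatments, scaled by TMM, with 4 residual degrees of freedom; a fit of 16 libraries served to compare lines. P-values were adjusted by Benjamini-Hochberg over all genes tested. Standard errors were taken as the fold change over the root of the F statistic. RPKM used GENCODE canonical transcripts, and likeness used log2(CPM + 0.5). The fit of each line was tested on simulated counts with known fold changes, for nutlin against DMSO alone.

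Replicates varied 11.6 to 48.3 times more than counting error gives in TPC1, and 4.96 to 8.17 times more in K1. Differences between same-numbered replicates correlated across treatments at 0.494 to 0.698 in TPC1 over 12318 genes, a pairing seen only in the data, and at −0.359 to 0.379 in K1.

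The 9 genes, the 6 pathway lists and the marker lists were chosen with earlier results of these data known. Named besides them were, per list and line, the largest called increase and decrease with nutlin (higher group averaging 5 CPM or more, replicates not overlapping), *CDKN1A* and *MDM2*, and the 2 genes most like each gene in both lines. Further genes of the lists (*GTF2H2*, *ERCC2*, *ERCC4*, *ERCC6*, *UVSSA*, *RBX1*, *RAD18*, *RRM1*, *FANCA*, *FANCD2*, *MAP2K3*, *MAP2K4*, *MAPK11*, *MAPK13*, *MAP3K4*, *FEN1* and *MAP2K6*) were named after their values were seen. Alternatives replaced TMM scaling, the filter, the tool, the libraries in the fit and the block, left out each library in turn and, added after seeing the data, took out the dependence of fold changes on GC content and length (values for 87.1% of genes in TPC1 and 86.8% in K1).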

Additional observations from a re-analysis of the deposited data

Results flagged for a closer look

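The response to nutlin differed between the lines by a test of the difference itself in 6 of the 9 genes. On the log2 scale, K1 minus TPC1, it was −1.21 for *DDB2*, −1.08 for *XPC*, −0.903 for *POLH*, −1.14 for *RRM2B*, −0.712 for *PCNA* and −1.44 for *GADD45A*. All 6 kept their call in each alternative tried. The added effect of GSK2830371 on top of nutlin differed for *GADD45A*, by −0.755, with a range of −0.867 to −0.645 over the alternatives. Line, culture medium and any difference in sequencing between the lines cannot be told apart, and which of them goes with these differences was not tested.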

How the results depend on the processing

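Calls for *DDB2*, *XPC*, *POLH*, *RRM2B*, *FANCC* and *GADD45A* with nutlin or the combination against DMSO kept their direction and call in all alternatives of both lines. With scaling by library size alone, the number of the 9 genes called went from 0 to 1 for GSK2830371 in TPC1, for the combination against nutlin in K1 and for the interaction in K1, and from 2 to 1 for the interaction in TPC1. With the GC content and length trend removed it was 1 for GSK2830371 in TPC1, 1 for the interaction in TPC1 and 1 for the combination against nutlin in K1. Leaving out 1 library gave 0 to 1 for GSK2830371 in either line, 0 to 2 for the interaction in TPC1, 0 to 1 for the interaction and for the combination against nutlin in K1, and 0 to 1 for the response to GSK2830371 between the lines; a lone library was assumed to vary like the other groups. In TPC1 the replicate block kept 7 calls with nutlin, 7 with the combination and 2 for the interaction. In K1, where differences between same-numbered replicates correlated across treatments at −0.359 to 0.379, the block gave 7 calls with nutlin in place of 6. Between the lines with DMSO it gave 7 in place of 6, for a difference that the block sets at replicate 1 of each line. No called value changed its sign. Changes under a fold of 1.5 were not called by the threshold chosen, whatever their p, and *GADD45G* in TPC1 rests on 4 to 22 counts per library. The causes of these changes were not tested.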
